A study of Homo sapiens with 20 samples.

Results

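The genes described here encode 9 transcription factors of the intestinal epithelial lineage: SOX4, SOX9, CDX1, CDX2, HNF4A, HES1, GATA6, ELF3 and EHF. They were picked by symbol (GENCODE release 29) from 39918 genes with counts, and each symbol matched 1 row. Of the 9, 8 passed the filter on low counts and were tested, and CDX1 did not. Total RNA depleted of ribosomal RNA had been sequenced in 20 libraries, 4 for each of 5 groups, all of HCT-116, a human cell line established from a colorectal carcinoma.

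MG132 cells, bortezomib cells and MG132 plus α-amanitin cells had spent 16 h in 2 mM thymidine, a block to DNA synthesis, then 7 h released from it and 3 h in drug. The drugs were 20 µM MG132, 100 nM bortezomib, or 20 µM MG132 together with 50 µg/ml α-amanitin. MG132 and bortezomib inhibit the proteasome, and α-amanitin inhibits RNA polymerase II. G2 cells had the same thymidine block and release and were collected with no drug at 0 h. Asynchronous cells had neither thymidine nor drug. A vehicle group at 3 h was not analysed here, so in each comparison with G2 cells the drug and the added 3 h of cell cycle time cannot be told apart. The labels do not say whether replicates were separate cultures, so the p-values rest on a spread between samples that could be technical.

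In the gut, SOX9 marks and maintains the crypt compartment of stem and progenitor cells, and SOX4 is an HMG-box factor of progenitor and tuft cell programmes. CDX1 and CDX2 are homeodomain factors that set intestinal identity, HNF4A is a nuclear receptor that drives enterocyte genes together with CDX2, and GATA6 is a zinc finger factor of crypt and endodermal cells. HES1 is the basic helix-loop-helix repressor through which Notch signalling favours absorptive over secretory fate. ELF3 and EHF are ETS-domain factors of differentiating epithelia. Several of these factors, HES1 above all, are known for short-lived transcripts that follow transcription closely.

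The libraries held 26797395 to 39710457 counts, and the 8 tested genes had 59 to 2761 counts per library. Of 10 colon epithelial markers 8 were tested: EPCAM was at 141 to 408 CPM (read counts relative to library size, scaled between libraries by TMM) and CDH1 at 36.8 to 128 CPM. VIL1 and CDH17, products of differentiated enterocytes, reached at most 0.22 and 0.14 CPM in any library. The 10 epithelial markers summed to 4270 to 6090 CPM in MG132, 3630 to 5170 CPM in bortezomib, 3540 to 4580 CPM in MG132 plus α-amanitin, 3300 to 5830 CPM in G2 and 4010 to 5890 CPM in asynchronous cells. Of 10 fibroblast markers 1, COL1A1, was tested, and in the same order of groups the 10 summed to 5.69 to 11.8, 5.58 to 9.33, 8.5 to 12.9, 6.31 to 10.7 and 3.23 to 4.27 CPM. DCN and LUM reached at most 0.08 and 0.07 CPM. Leukocyte markers (2 tested) summed to 0.489 to 2.62 CPM with PTPRC at most 0.15 CPM, and hepatocyte markers (1 tested) to 0.783 to 5.92 CPM with ALB at most 0.41 CPM. In 4 libraries, genes deviated from their mean over all libraries with GC content by over 0.3 log2 units per 10 percentage points. This slope was 0.74 in MG132 replicate 4, -0.41 in MG132 replicate 2, 0.36 in G2 replicate 2 and 0.5 in asynchronous replicate 3. A letter in the sample codes, whose meaning the labels do not give, was unevenly spread over the groups, and bortezomib replicates 2 and 4 shared theirs with no other sample. For the factors called against G2 cells, values without the 4 libraries and within letters are given with the results. Omitting the 4 left MG132 replicates 1 and 3, G2 replicates 1, 3 and 4, and asynchronous replicates 1, 2 and 4.

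CDX1 (ENSG00000113722.17; hg38 chromosome 5, 150166795 to 150184558) had 0 counts in 19 of 20 libraries and 1 count in MG132 replicate 4. A count of 0 allows up to 3 counts, or 0.112 CPM in the shallowest library and 0.0755 CPM in the deepest. These limits use library totals without TMM scaling and cover counting error only. CDX1 was therefore not detectable at this depth in any group, while its relative CDX2 was counted in each library.

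The order of the other genes was read from CPM per kilobase of merged exons. In G2 cells SOX9 stood highest at 16.5 ± 2.06 (SD, n = 4), followed by EHF at 10.7 ± 4.75, SOX4 at 9.26 ± 0.988 and HES1 at 6.25 ± 0.479 CPM per kilobase. ELF3 (2.85 ± 0.406), CDX2 (2.75 ± 0.482), HNF4A (1.36 ± 0.167) and GATA6 (1.06 ± 0.0958) came after them. The library ranges of SOX9 and EHF overlapped, as did those of EHF and SOX4, ELF3 and CDX2, and HNF4A and GATA6. The difference in means was less than the larger SD for EHF over SOX4 (1.4 against an SD of 4.75) and ELF3 over CDX2 (0.102 against 0.482), so these neighbours did not differ beyond their spread. It was more than the larger SD for SOX9 over EHF (5.84 against 4.75) and HNF4A over GATA6 (0.298 against 0.167). SOX4 lay above HES1, HES1 above ELF3, and CDX2 above HNF4A with no overlap. The order depends on the merged exon length, 2062 bases for HES1 (2 transcripts), 7191 for ELF3 (10) and 7311 for HNF4A (9). Which of the transcripts were expressed was not tested. In CPM not divided by length, ELF3 stood above HES1 in G2 cells (20.5 against 12.9) with no overlap. CDX2 (11.3 CPM) then overlapped HNF4A (9.92 CPM). Under MG132, EHF averaged 11.1 ± 7.6, SOX9 8.35 ± 1.16, HES1 4.04 ± 1.62 and SOX4 3.47 ± 0.457 CPM per kilobase, and SOX4 overlapped both HES1 and ELF3. Per kilobase, HNF4A and GATA6 were the lowest of the 8 in each group.

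**Figure D1:**
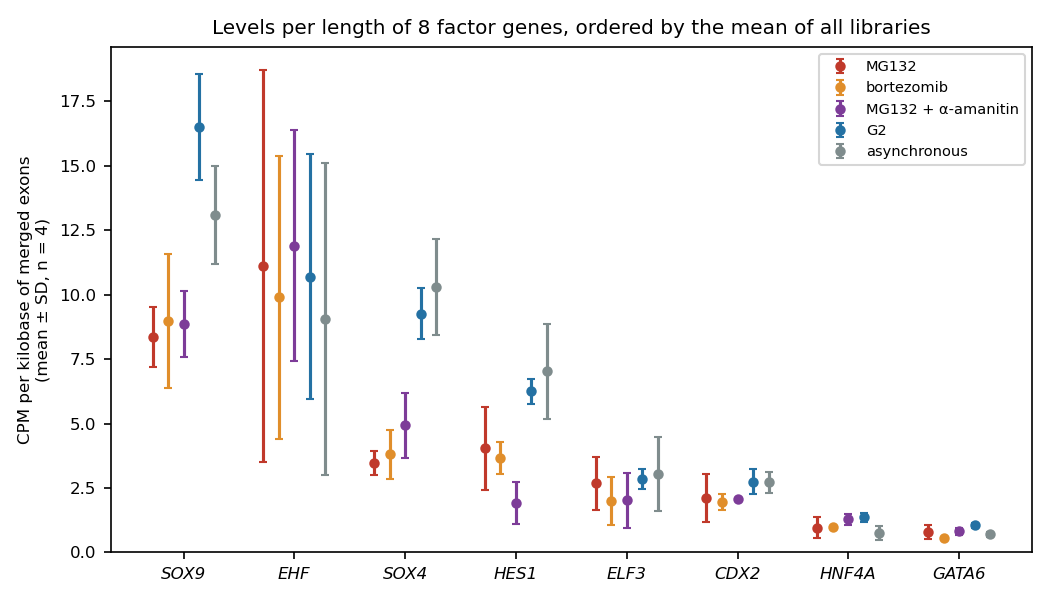
CPM per kilobase of merged exons (vertical axis) for the 8 tested genes, ordered by their mean over all libraries; points are group means and bars 1 SD (n = 4). SOX9, SOX4 and HES1 are lower in the 3 drug groups than in G2 cells, and EHF has the widest bars in every group.

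Drug-treated cells were compared with G2 cells to ask how blocking the proteasome, with or without RNA polymerase II, altered these transcripts. SOX4 and SOX9 fell under MG132, under bortezomib and under MG132 plus α-amanitin. GATA6 fell under bortezomib and HES1 under MG132 plus α-amanitin. No tested factor was called higher in any drug group against G2 cells. Under MG132, 2 of 8 were called lower, where 2.08% of all 18959 genes tested were called, 1.01% higher and 1.08% lower. Under bortezomib 3 of 8 were called lower, against 1.15% of all genes called, 0.491% higher and 0.659% lower. Under MG132 plus α-amanitin 3 of 8 were called lower, against 3.35% of all genes called, 1.04% higher and 2.32% lower. The median log2 fold change of the 8 was -0.46 under MG132, -0.64 under bortezomib and -0.44 under MG132 plus α-amanitin, and that of all genes was -0.03, -0.01 and 0. The members were chosen with earlier results of these data known, so these counts and medians describe them and test no enrichment. The 3 comparisons share the 4 G2 libraries, so a G2 library that stands apart moves all of them. In bulk RNA, fewer cells that express a gene and less RNA per cell cannot be told apart.

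**Figure D2:**
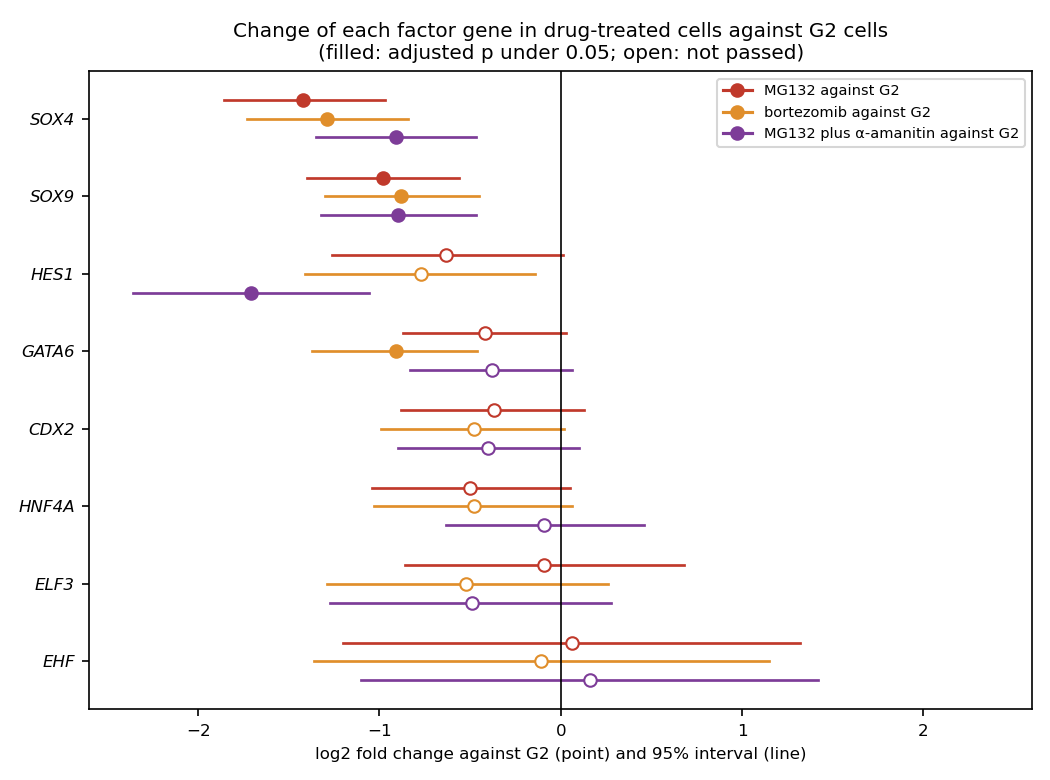
Log2 fold change against G2 cells (horizontal axis) with its 95% interval for each gene in MG132, bortezomib and MG132 plus α-amanitin cells (n = 4 per group, edgeR). Filled points passed an adjusted p of 0.05; SOX4 and SOX9 are filled in all 3 comparisons, and the EHF intervals are the widest.

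SOX4 (ENSG00000124766.7; chromosome 6, 21592768 to 21598619) is a gene of 1 exon. It was at 22.1, 16.4, 22.1 and 20.6 CPM in MG132 replicates 1 to 4, against 48.4, 54.1, 62.1 and 52.1 CPM in G2 replicates 1 to 4. The highest MG132 library lay at less than any G2 library, with a wide gap between the groups. The log2 fold change was -1.42 (SE 0.213; edgeR quasi-likelihood test, adjusted p = 0.000754). SOX4 was called under each of the 21 alternative settings of this comparison, with log2 fold changes of -1.66 to -1.32 and adjusted p of 2.01e-07 to 0.0367. Without the 4 GC-skewed libraries it was -1.32 (adjusted p = 0.0157). Between samples that shared a code letter the log2 ratio was -1.56 in letter L (1 library against 1) and -1.39 in letter O (2 against 3).

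Bortezomib cells held SOX4 at 16.1, 19.7, 24.6 and 28.6 CPM in replicates 1 to 4, again all under the lowest G2 library. The log2 fold change was -1.29 (SE 0.212, adjusted p = 0.0037). With the code letter as a block, a fit in which bortezomib replicates 2 and 4 carry no information, SOX4 was not called (-1.55, adjusted p = 0.0897). The 1 bortezomib and 3 G2 libraries of letter O gave a log2 ratio of -1.8, and without the 4 GC-skewed libraries the value was -1.32 (adjusted p = 0.00418). MG132 plus α-amanitin cells had 23.8, 25.3, 26.4 and 39.9 CPM of SOX4. Replicate 4 was the highest of them and still under every G2 library, and the log2 fold change was -0.91 (SE 0.21, adjusted p = 0.0174). The SOX4 call was lost without MG132 plus α-amanitin replicate 1 (adjusted p = 0.0881), 2 (0.079) or 3 (0.0631), with total library size scaling (0.0538) and with the code letter block (0.139). It was called without the 4 GC-skewed libraries (-0.94, adjusted p = 0.0164). Log2 ratios were -0.94 in letter L (1 against 1) and -0.49 in letter O (1 against 3).

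SOX9 (ENSG00000125398.8; chromosome 17, 72121020 to 72126420) was at 34.2, 28.8, 29.8 and 38.8 CPM in MG132 cells, against 61.9, 55, 69.8 and 73 CPM in G2 cells. Each MG132 library was lower than each G2 library, and the log2 fold change was -0.98 (SE 0.203, adjusted p = 0.012). Without MG132 replicate 3 SOX9 was not called (-0.89, adjusted p = 0.105), nor in a fit of these 8 libraries alone (-0.92, adjusted p = 0.219) or with scaling to mitochondrial mRNA (-1.23, adjusted p = 0.0541). Without the 4 GC-skewed libraries the value was -1.12 (adjusted p = 0.0225). Within letters the log2 ratio of SOX9 was -1.1 in L (1 against 1) and -0.94 in O (2 against 3).

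In bortezomib cells SOX9 formed pairs, 26.8 and 26.2 CPM in replicates 1 and 3 and 45.1 and 43.4 CPM in replicates 2 and 4. The 2 higher libraries are those whose code letters occur in no other sample, and the part of the letter was not tested apart from the block. All 4 stayed below G2 cells, with a log2 fold change of -0.88 (SE 0.202, adjusted p = 0.0367). This SOX9 call was lost without bortezomib replicate 1 (adjusted p = 0.181) or 3 (0.101), and without G2 replicate 1 (0.0869), 2 (0.0609), 3 (0.0739) or 4 (0.0912). It was also lost with the replicate block (0.0715), the code letter block (0.16), mitochondrial mRNA scaling (0.114), total library size (0.0593) and no filter (0.0582), always with a log2 fold change between -1.25 and -0.76. SOX9 was called without the 4 GC-skewed libraries (-0.98, adjusted p = 0.0138), and letter O gave -1.3 (1 against 3). MG132 plus α-amanitin cells had 28.2, 37.6, 39.6 and 34.2 CPM of SOX9 (log2 fold change -0.90, SE 0.202, adjusted p = 0.015). No library reached the lowest G2 value. Without MG132 plus α-amanitin replicate 1 the adjusted p was 0.0796, with total library size 0.0554 and with the code letter block 0.074. Without the 4 GC-skewed libraries SOX9 was at -0.99 (adjusted p = 0.00681), and letters L and O gave -0.72 (1 against 1) and -0.95 (1 against 3).

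**Figure D3:**
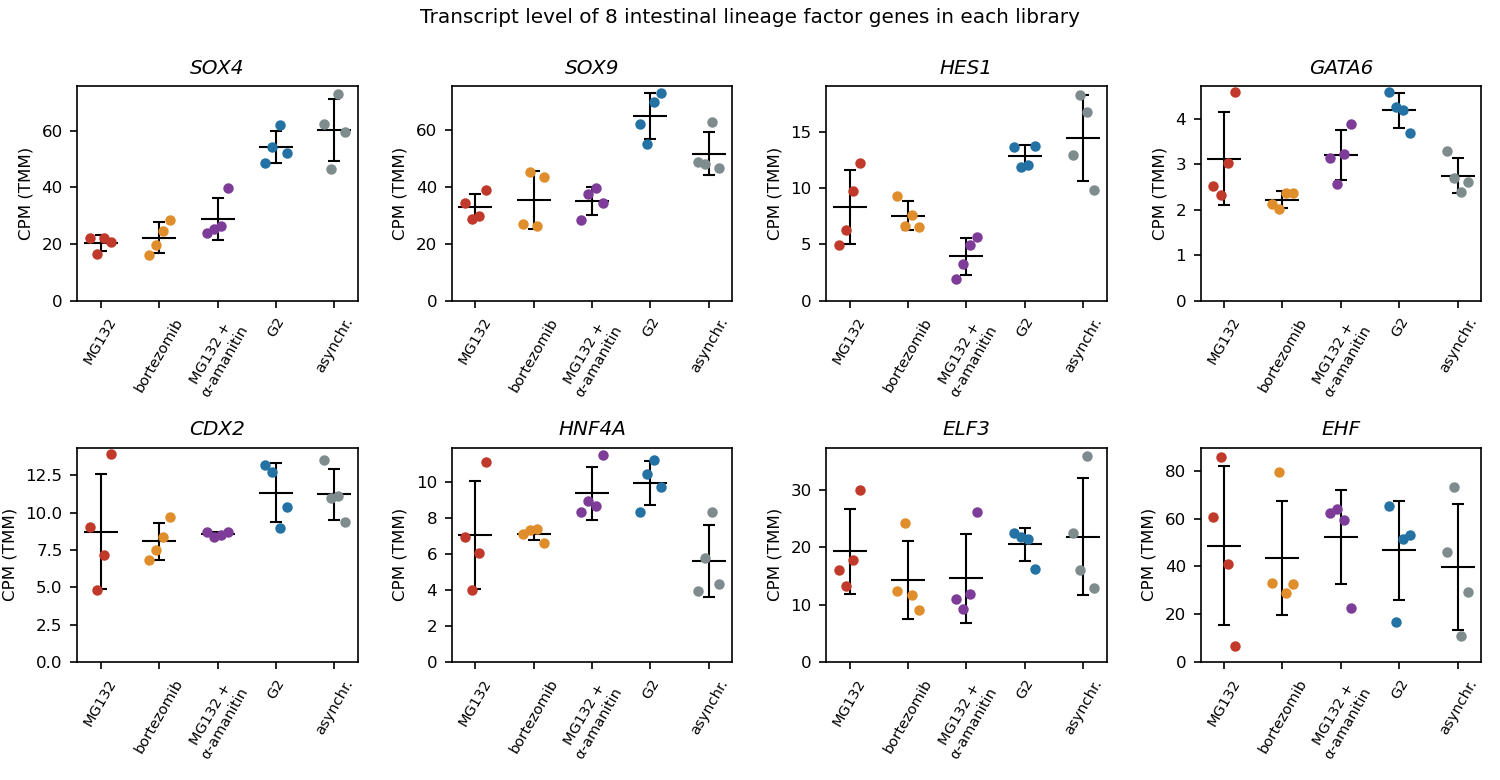
CPM with TMM scaling (vertical axes, each from 0) in every library of the 5 groups for the 8 tested genes; points are libraries, horizontal lines means and bars 1 SD (n = 4). SOX4 and SOX9 in each drug group, GATA6 in bortezomib cells and HES1 in MG132 plus α-amanitin cells lie wholly under the G2 libraries. So do HNF4A and HES1 in bortezomib cells and CDX2 in MG132 plus α-amanitin cells, but without passing the test. Their edgeR adjusted p in the fit of all samples were 0.411, 0.239 and 0.498. How many of all tested genes lie wholly under the G2 libraries was not counted.

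HES1 (ENSG00000114315.4; chromosome 3, 194136145 to 194138732) responds to Notch through the factor RBPJ and represses its own promoter at N-boxes, as described in mouse, which makes its expression pulsatile. The sequence just upstream is shown because it holds letter matches to the sites of both kinds of control. It is taken from RefSeq (GRCh38.p14, plus strand, chr3:194135898-194136144) and is written 5′ to 3′, with capitals at the RBPJ core TGGGAA and the N-box CACNAG, searched on both strands.
HES1 upstream: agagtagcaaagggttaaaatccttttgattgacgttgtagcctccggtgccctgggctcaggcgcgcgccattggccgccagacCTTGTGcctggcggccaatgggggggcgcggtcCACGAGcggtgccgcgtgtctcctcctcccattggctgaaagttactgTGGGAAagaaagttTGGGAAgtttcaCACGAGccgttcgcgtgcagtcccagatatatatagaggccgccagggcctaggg
RBPJ cores began 84 and 70 bases before the RefSeq start, and N-boxes 165, 132 and 58 bases before it, the first of them on the minus strand. Of 35116 RefSeq promoter windows of 300 bases, 24% held TGGGAA and 38% held CACNAG. A heat shock element pair, GAANNTTC, which 6.77% of windows held, began 67 bases before the start and overlapped the nearer RBPJ core. Windows were found for 7 of the 9 genes, SOX4, CDX2, HNF4A, HES1, GATA6, ELF3 and EHF. HES1 was the only one of these 7 genes with a match to GAANNTTC, while TGGGAA occurred also in windows of SOX4, HNF4A, ELF3 and EHF. A match is a description of letters and not evidence of binding.

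In MG132 plus α-amanitin cells HES1 was at 1.89, 3.25, 4.95 and 5.63 CPM in replicates 1 to 4, against 13.7, 11.9, 12.1 and 13.8 CPM in G2 cells. The groups were far apart, and the log2 fold change was -1.71 (SE 0.312, adjusted p = 0.00361), the lowest of any factor in any drug comparison. HES1 was called here under all 21 alternatives, at -2.08 to -1.48 with adjusted p of 2.68e-05 to 0.0203. Without the 4 GC-skewed libraries it was -1.78 (adjusted p = 0.00439). Log2 ratios of HES1 within code letters were -2.07 in L (1 against 1) and -1.17 in O (1 against 3).

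With MG132 alone HES1 was scattered, at 4.94, 6.32, 9.79 and 12.3 CPM. Replicate 4 lay among the G2 libraries and the others below them, and the gene did not pass (log2 fold change -0.63, SE 0.303, adjusted p = 0.431). In letter L the log2 ratio was -1.11 (1 against 1) and in letter O -0.2 (2 against 3). Bortezomib cells had 9.33, 6.61, 7.65 and 6.58 CPM, each lower than each G2 library, and HES1 did not pass in the fit of all samples (-0.77, SE 0.304, adjusted p = 0.239). When the bortezomib and G2 libraries were fitted alone it passed (-0.83, adjusted p = 0.0336). The 95% interval of the HES1 log2 change was -1.26 to 0.01 under MG132 and -1.41 to -0.14 under bortezomib.

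GATA6 (ENSG00000141448.10; chromosome 18, 22169443 to 22202528) had the lowest mean of the 8 per kilobase. Bortezomib cells had 2.13, 2.01, 2.37 and 2.37 CPM and G2 cells 4.59, 4.26, 4.2 and 3.68 CPM. These groups did not overlap, and the log2 fold change was -0.91 (SE 0.217, adjusted p = 0.0421). That call was close to the threshold: leaving out any 1 of the 8 libraries ended it. The adjusted p of GATA6 was then 0.162, 0.118, 0.0771 and 0.104 without bortezomib replicates 1 to 4, and 0.132, 0.128, 0.0739 and 0.0649 without G2 replicates 1 to 4. It was 0.0713 with the replicate block, 0.0558 with RLE scaling, 0.114 with mitochondrial mRNA scaling, 0.126 with no filter and 0.754 with the code letter block. Without the 4 GC-skewed libraries GATA6 was called (-0.94, adjusted p = 0.0201), as it was after a GC and length offset (-0.77, adjusted p = 0.0272). The value in letter O was -0.93 (1 against 3). MG132 cells had 2.53, 2.33, 3.03 and 4.59 CPM of GATA6, with replicate 4 at the level of the highest G2 library, and did not pass (-0.42, SE 0.214, adjusted p = 0.475). In MG132 plus α-amanitin cells the value was -0.38 (SE 0.213, adjusted p = 0.45).

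CDX2 and HNF4A, the pair of identity factors, had negative values that did not pass in the 3 comparisons. CDX2 (ENSG00000165556.10; chromosome 13, 27962137 to 27971139, minus strand) was at 9.06, 4.82, 7.13 and 13.9 CPM in MG132 cells and 13.2, 12.7, 8.98 and 10.4 CPM in G2 cells. MG132 replicate 4 was higher than any G2 library and replicate 2 lower (log2 fold change -0.37, SE 0.241, adjusted p = 0.644). CDX2 was at 6.83, 7.49, 8.35 and 9.69 CPM in bortezomib cells (-0.48, SE 0.241, adjusted p = 0.369). It was nearly level, at 8.38 to 8.67 CPM, in MG132 plus α-amanitin cells, all under the lowest G2 library (-0.40, SE 0.24, adjusted p = 0.498). Within letters the MG132 value of CDX2 was -1.46 in L (1 against 1) and -0.02 in O (2 against 3), and without the 4 GC-skewed libraries it was -0.45 (adjusted p = 0.388).

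HNF4A (ENSG00000101076.16; chromosome 20, 44355700 to 44434596) has separate promoters that a count per gene adds together. It was at 6.95, 3.99, 6.06 and 11.1 CPM in MG132 cells, against 8.33, 10.4, 11.2 and 9.73 CPM in G2 cells, which overlapped (log2 fold change -0.50, SE 0.261, adjusted p = 0.503). Bortezomib libraries were closely grouped at 6.62 to 7.39 CPM and lay below the G2 libraries (-0.48, SE 0.261, adjusted p = 0.411). With MG132 plus α-amanitin HNF4A was at 8.31 to 11.5 CPM (-0.09, SE 0.26, adjusted p = 0.934). Within letters the MG132 value of HNF4A was -1.06 in L and -0.28 in O, and without the 4 GC-skewed libraries -0.62 (adjusted p = 0.177).

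Of the ETS factors, EHF had the highest coefficient of variation of the 8 in MG132, bortezomib, G2 and asynchronous cells, and ELF3 in MG132 plus α-amanitin cells. ELF3 (ENSG00000163435.16; chromosome 1, 202007945 to 202017188) was at 16.1, 13.3, 17.7 and 29.9 CPM in MG132 cells and 22.5, 21.8, 21.4 and 16.2 CPM in G2 cells. MG132 replicate 4 was the highest of these 8 and replicate 2 the lowest (log2 fold change -0.09, SE 0.37, adjusted p = 0.977). The values were -0.52 (adjusted p = 0.519) under bortezomib and -0.49 (adjusted p = 0.624) under MG132 plus α-amanitin. Within letters the MG132 value of ELF3 was -0.76 in L and 0.27 in O, and without the 4 GC-skewed libraries -0.27 (adjusted p = 0.833). ELF3 shares exons with AL691482.3 on its own strand and with ELF3-AS1 on the other, which had 65 to 224 and 20 to 122 counts per library. How reads were divided among them is uncertain, as the strand setting of the counting is not given in the sources used here.

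EHF (ENSG00000135373.12; chromosome 11, 34621093 to 34661057) was at 60.8, 85.8, 41.1 and 6.82 CPM in MG132 cells and 65.4, 16.9, 51.6 and 53 CPM in G2 cells. MG132 replicate 4 was the lowest library and MG132 replicate 2 the highest of all 20. EHF did not pass in MG132 cells (log2 fold change 0.06, SE 0.603, adjusted p = 0.989), in bortezomib cells (-0.11, adjusted p = 0.942) or in MG132 plus α-amanitin cells (0.16, adjusted p = 0.946). With so wide an error, the 95% interval under MG132 ran from -1.2 to 1.32, so that a change of 1 log2 unit in either direction lies inside it. Within letters the MG132 value of EHF was 0.39 in L and -0.76 in O.

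In the 4 GC-skewed libraries EHF was low where the slope was positive and high where it was negative. The longest EHF transcript is 42.3% GC, the lowest of the 9, and those of the others are 49.9% to 62.8%. EHF was at 6.82 CPM in the library with the steepest positive GC slope, MG132 replicate 4, and at 10.9 and 16.9 CPM in asynchronous replicate 3 and G2 replicate 2. It was at 85.8 CPM in MG132 replicate 2, the library with the steepest negative slope. Among bortezomib cells, whose slopes were small, this order did not hold: EHF was at 79.3 CPM in replicate 2, with a slope of -0.07, and at 28.8 to 32.9 CPM in the others, with slopes of -0.2 to -0.15. SOX9, CDX2, HNF4A, GATA6 and ELF3 ran the other way in MG132 cells, each highest in replicate 4 and lowest in replicate 2. After a GC and length offset the SE of EHF under MG132 was 0.47 and its value -0.08 (adjusted p = 0.967). Without the 4 libraries it was -0.18 (SE 0.472, adjusted p = 0.903). SOX4 differed little between those libraries, with 16.4 CPM in MG132 replicate 2 and 20.6 CPM in replicate 4. SOX9 was at 28.8 CPM in MG132 replicate 2 and 38.8 CPM in replicate 4.

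**Figure D4:**
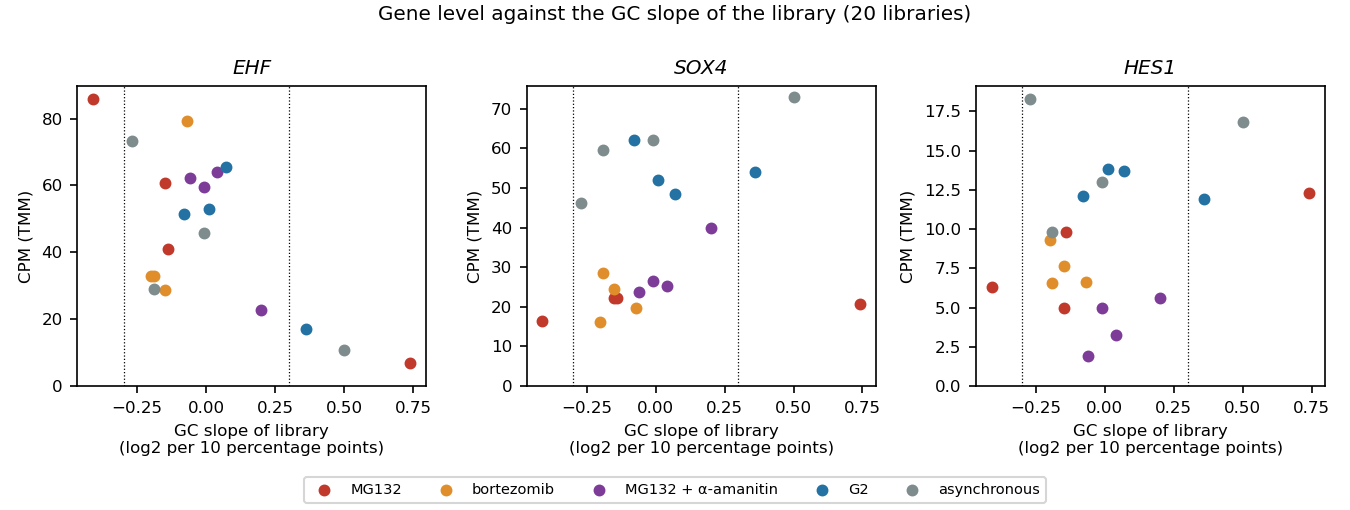
CPM with TMM scaling (vertical axis, from 0) against the GC slope of each library (horizontal axis, log2 units per 10 percentage points of GC content) for EHF, SOX4 and HES1 in 20 libraries coloured by group; dotted lines mark slopes of 0.3 in either direction. EHF is lowest in the libraries with the steepest positive slopes, whereas SOX4 separates the drug groups from G2 and asynchronous cells across the range of slopes.

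MG132 plus α-amanitin cells were compared with MG132 cells, at the same 3 h, to ask which transcripts depended on RNA polymerase II during proteasome inhibition. None of the 8 factors was called by edgeR, where 2.19% of all genes were called, 0.68% higher and 1.51% lower. At an unadjusted p under 0.05 there were 2, SOX4 and HES1. DESeq2 called 1, HES1, and limma-voom called 0. HES1 was at 1.89, 3.25, 4.95 and 5.63 CPM with α-amanitin, against 4.94, 6.32, 9.79 and 12.3 CPM with MG132 alone. The groups overlapped only at their edges, and the log2 fold change was -1.09 (SE 0.309, adjusted p = 0.077). Over the 21 alternatives the adjusted p of HES1 ran from 0.0159 to 0.333, and it was called in 5. Among these were the fits without MG132 replicate 1 (-1.27, adjusted p = 0.0352) and without MG132 plus α-amanitin replicate 4 (-1.31, adjusted p = 0.0469). Within letters K, L and O the log2 ratios of HES1 were -1.38, -0.96 and -0.97.

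SOX4 lay the other way in this comparison. It was at 23.8 to 39.9 CPM with α-amanitin and 16.4 to 22.1 CPM with MG132 alone, without overlap, and did not pass (log2 fold change 0.51, SE 0.21, adjusted p = 0.294). Over the 21 alternatives the SOX4 value was 0.31 to 0.67. CPM are relative, so more SOX4 RNA and a smaller loss than in other genes cannot be told apart. With mitochondrial mRNA scaling the median of all genes in this comparison was -0.12, against 0.02. SOX9 was near 0 (0.09, 95% interval -0.33 to 0.5), as were CDX2 (-0.03, -0.53 to 0.47) and GATA6 (0.04, -0.41 to 0.48). HNF4A had 0.41 (95% interval -0.13 to 0.96) and ELF3 -0.40 (-1.18 to 0.37).

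MG132 at 20 µM and bortezomib at 100 nM were compared at 3 h. Whether these doses were matched in activity was not tested. None of the 8 factors was called by edgeR, DESeq2 or limma-voom, where edgeR called 0.0369% of all genes, all of them higher under MG132, and 1 had an unadjusted p under 0.05. That was GATA6, at 2.33 to 4.59 CPM under MG132 and 2.01 to 2.37 CPM under bortezomib (log2 difference 0.49, 95% interval 0.04 to 0.95, adjusted p = 0.983). For SOX4 the difference was -0.13 (95% interval -0.57 to 0.31), for SOX9 -0.11 (-0.52 to 0.31) and for HES1 0.15 (-0.49 to 0.78). These intervals do not exclude differences of that size, and do not show that the inhibitors act alike.

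Synchronisation itself was read from G2 against asynchronous cells. None of the 8 factors was called by edgeR, DESeq2 or limma-voom, where edgeR called 2.09% of all genes, 1.95% higher and 0.148% lower, and 2 had an unadjusted p under 0.05. The 369 higher and 28 lower calls over all genes were 627 and 410 after a GC and length offset and 578 and 136 with DESeq2. HNF4A was at 8.33, 10.4, 11.2 and 9.73 CPM in G2 cells and 3.92, 5.77, 8.33 and 4.34 CPM in asynchronous cells. The lowest G2 library and the highest asynchronous library were equal to 3 digits, and the log2 fold change was 0.83 (SE 0.263, adjusted p = 0.122). The highest of the asynchronous libraries, replicate 3, is GC-skewed. Without it HNF4A was called (1.08, adjusted p = 0.0354), as it was without all 4 such libraries (1.06, adjusted p = 0.00638) and with the GC and length offset (0.73, adjusted p = 0.0281). Within letters HNF4A was at 1.09 in L (1 against 1) and 0.33 in O (3 against 1, where the 1 is replicate 3). GATA6 was at 3.68 to 4.59 CPM in G2 cells and 2.38 to 3.29 CPM in asynchronous cells (0.61, SE 0.215, adjusted p = 0.176). SOX4 (-0.15), SOX9 (0.33), HES1 (-0.17), CDX2 (0.01) and ELF3 (-0.09) had adjusted p of 0.546 or more. Fibroblast markers summed to 6.31 to 10.7 CPM in G2 cells and 3.23 to 4.27 CPM in asynchronous cells, without overlap, and leukocyte markers to 0.955 to 1.5 and 0.489 to 0.784 CPM. Most of the fibroblast sum was the 1 gene COL1A1, at 5.79 to 10.24 CPM in G2 cells and 3.16 to 4.13 CPM in asynchronous cells. The part of fibroblast and leukocyte markers in the comparison was not tested. SOX9 averaged 64.9 ± 8.11 CPM in G2 cells and 51.6 ± 7.53 CPM in asynchronous cells (SD, n = 4).

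Genes with the most similar profile were sought among 9665 protein-coding genes of at least 3 log2 CPM, by the root mean square difference of centred group means on the log2 scale over the 5 groups. The profile nearest to SOX4 was that of the Wnt ligand gene WNT16, at a difference of 0.094, followed by the phosphodiesterase gene PDE4B (0.116) and the homeobox gene HOXB4 (0.13). Nearest to SOX9 were the endocytic recycling gene EHD1 (0.052), the small GTPase gene RAB20 (0.075) and HOXB7 (0.077). For HES1 they were the ERK phosphatase gene DUSP6 (0.062), IER5L (0.142) and SERTAD3 (0.172). GATA6 was nearest to GPRC5C (0.085), CCDC88B (0.09) and PRADC1 (0.099). For the other 4 factors the nearest genes were DAXX, PYCR3 and EMILIN2 (CDX2), GPSM1, DGKA and TNFAIP2 (HNF4A), SMIM26, COPS9 and ATP5MD (ELF3), and TMEM94, SLC4A3 and IGSF3 (EHF). With 9665 candidates, close profiles arise also for uncalled genes: the nearest to EHF differed by 0.021. Among the factors themselves the closest pairs were HNF4A and EHF (0.167), CDX2 and ELF3 (0.182) and CDX2 and SOX9 (0.193). SOX4 and SOX9 differed by 0.329, and SOX4 and HES1 by 0.552. SOX4 and HES1 both had lower means in the drug groups than in G2 cells, but SOX4 was lowest under MG132 and HES1 under MG132 plus α-amanitin.

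Partners of these factors were read from 4 further lists, whose counts stand beside 2.08% of all genes called under MG132, 1.15% under bortezomib and 3.35% under MG132 plus α-amanitin, each against G2 cells. A count of 1 of 31 is near these shares. The lists, too, were chosen with earlier results of these data known, so their counts and medians are descriptions. Of 36 Notch pathway genes 31 were tested. NRARP, a Notch target that feeds back on the pathway, fell under MG132, at 4.7 ± 1.31 CPM against 8.79 ± 0.815 CPM in G2 cells (SD, n = 4), by a log2 fold change of -0.90 (SE 0.205, edgeR adjusted p = 0.0222). Under bortezomib it also fell (4.58 ± 0.306 CPM; -0.94, adjusted p = 0.0273). It was the only gene of the list that edgeR called in either, while DESeq2 and limma-voom called 2 each under MG132. NRARP was called in 11 of 21 alternatives under MG132 and 10 of 21 under bortezomib. With the GC and length offset it was at -0.57 (adjusted p = 0.0937) and -0.58 (0.094). Under MG132 the NRARP call was lost without G2 replicate 1 (0.0577), 2 (0.0664) or 4 (0.07), or MG132 replicate 1 (0.0958) or 3 (0.203). Under bortezomib it was lost without bortezomib replicate 1 (0.115), 2 (0.0805) or 4 (0.0927), or G2 replicate 1 (0.0848), 2 (0.0887) or 4 (0.0695). The list's median log2 fold change was -0.03 under MG132 and 0.03 under bortezomib, and that of all genes -0.03 and -0.01. Under MG132 plus α-amanitin edgeR called 0 of the 31 against G2 cells, by the same test that called HES1, which is not on the list. DESeq2 and limma-voom also called 0, 5 genes had an unadjusted p under 0.05, and the median was 0.09, against 0 for all genes.

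Of 24 relatives of the factors 15 were tested. SOX12, of the same SOX subgroup as SOX4, fell under MG132, at 4.41 ± 1.98 against 9.91 ± 1.04 CPM in G2 cells (edgeR, -1.17 on the log2 scale, SE 0.274, adjusted p = 0.028), and edgeR called no other relative in a drug group against G2 cells. Under bortezomib and under MG132 plus α-amanitin edgeR called 0 relatives, limma-voom 0 and DESeq2 2 and 1, and 4 and 3 had an unadjusted p under 0.05. The medians of the relatives were -0.30 under MG132, -0.29 under bortezomib and -0.02 under MG132 plus α-amanitin. The SOX12 call was lost without any 1 of MG132 replicates 1 to 3 (adjusted p = 0.11, 0.0817 and 0.141) or G2 replicates 1 to 4 (0.0511, 0.0569, 0.07 and 0.074). Of 26 secretory, enterocyte and posterior factors 15 were tested. HOXA13, a hindgut homeobox factor, fell under MG132 (1.95 ± 0.751 against 4.61 ± 0.233 CPM; -1.24, SE 0.264, adjusted p = 0.0153) and under bortezomib (2.13 ± 0.43 CPM; -1.12, adjusted p = 0.0417). HHEX, an endodermal homeobox factor, fell under bortezomib (-0.84, adjusted p = 0.0485). Leaving out 1 library ended the HOXA13 call under bortezomib in each of 8 cases, with adjusted p of 0.186, 0.0725, 0.067 and 0.126 without bortezomib replicates 1 to 4 and 0.117, 0.104, 0.0739 and 0.0733 without G2 replicates 1 to 4. For HHEX this held for bortezomib replicates 1 to 4 (0.174, 0.12, 0.097 and 0.107) and G2 replicates 1 (0.175), 2 (0.153) and 4 (0.0641).

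The medians of this list were -0.41 under MG132, -0.56 under bortezomib and -0.44 under MG132 plus α-amanitin, in which 1, 2 and 1 of 15 were called. POU2F3, the master factor of tuft cells, fell in MG132 plus α-amanitin cells to 0.786 ± 0.111 CPM, against 2.54 ± 1.11 CPM in G2 cells (log2 fold change -1.69, SE 0.314, adjusted p = 0.00413) and 2.3 ± 0.851 CPM in MG132 cells (-1.54, SE 0.315, adjusted p = 0.0092). Against MG132 the POU2F3 call was lost without MG132 plus α-amanitin replicate 1 (-1.45, adjusted p = 0.0532) and without the 4 GC-skewed libraries (-1.13, adjusted p = 0.117). Of 40 products of stem, differentiated and epithelial cells 14 were tested, and edgeR, DESeq2 and limma-voom each called 0 in the comparisons of drug groups with G2 cells. At an unadjusted p under 0.05 there were 0, 2 and 2, with medians of -0.01, -0.07 and -0.04 under MG132, bortezomib and MG132 plus α-amanitin.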

How the data were processed

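RNA was measured by sequencing in 20 libraries of HCT-116 cells, 4 in each of 5 groups assigned from the sample labels. The deposited values are raw counts of reads per gene and per repeat subfamily, as whole numbers, made by the authors. Tools named without roles, per the submitters' processing notes, are STAR, cutadapt 1.18 and FastQC, with build hg38. The counting tool, annotation, strand setting and treatment of reads with several matches are not stated in the sources used. Library totals were 26797395 to 39710457 counts.

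Symbols came from GENCODE release 29 for 38661 of 39918 genes and from a gene-name table for 1239. All 20 libraries entered 1 edgeR 4.0.16 fit (R 4.3.3) with a mean per group, the filterByExpr filter (minimum count 10), TMM scaling and a quasi-likelihood test with robust priors, which left 18959 genes and 15 residual degrees of freedom. P-values were adjusted by the Benjamini-Hochberg method over these genes, with 1076 repeats adjusted separately, and calls needed an adjusted p under 0.05. Tests are two-sided, and the script was tested on simulated data. CPM use TMM-adjusted library sizes, except for the limits given for CDX1, which use library totals. Alternatives were scaling by RLE, by library totals or by 13 mitochondrial mRNAs, no filter or a strict one (1 CPM in 4 libraries), DESeq2 1.42.0, limma-voom (limma 3.58.1), fits of the compared groups alone, blocks for replicate number and code letter, adjustment with repeats, a loess offset for GC content and length (known for 98.6% of tested genes), and omission of the 4 GC-skewed libraries or of 1 library. For list genes these were added after seeing the data.

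The members and lists were chosen with earlier results of these data known. Named besides the 9 members are the 3 protein-coding genes nearest to each in profile and, per list and drug comparison, up to 4 called genes of smallest p. Promoter windows (250 bases before to 50 after the start) are RefSeq's, GRCh38.p14.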

Additional observations from a re-analysis of the deposited data

Results flagged for a closer look

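In 5 of 40 sets of 4 libraries (8 genes in 5 groups), 1 library stood apart from the other 3 by Dixon's criterion, which chance meets in about 1 of 20 sets. In MG132 plus α-amanitin cells replicate 4 stood apart for 3 genes. SOX4 was at 39.9 CPM there and 23.8 to 26.4 CPM in the other replicates. ELF3 was at 26.1 CPM there and 9.32 to 11.8 CPM in the others. EHF was at 22.8 CPM there and 59.5 to 64.1 CPM in the others. The GC slope of that library was 0.2, and its part in these values was not tested. EHF was at 79.3 CPM in bortezomib replicate 2 and 28.8 to 32.9 CPM in the other bortezomib libraries, at GC slopes of -0.07 and -0.2 to -0.15. SOX9 was at 62.8 CPM in asynchronous replicate 3, a library with a GC slope of 0.5, and 46.7 to 48.8 CPM in the others.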

How the results depend on the processing

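Of 1008 values of the 8 factors under alternatives, 963 kept their direction and side of the threshold (or had no call to lose), 36 lost a call and 9 gained one. No called value changed sign, while 79 uncalled ones did. Factors called for bortezomib against G2 numbered 3, but 4 with the compared groups alone, 2 with RLE or total library size, 1 with mitochondrial mRNA scaling, no filter or the replicate block, 0 with the code letter block, and 1 to 2 when 1 library was left out. For MG132 against G2 they numbered 2, but 1 with mitochondrial mRNA scaling or the compared groups alone, and 1 to 2 with 1 library left out. For MG132 plus α-amanitin against G2 they numbered 3, but 1 with the code letter block or total library size, and 1 to 3 with 1 library left out. MG132 plus α-amanitin against MG132 had 0, but 1 with the code letter block, DESeq2 or the GC and length offset, and G2 against asynchronous had 0, but 1 with that offset or without the 4 GC-skewed libraries; both had 0 to 1 with 1 library left out. The causes were not tested.

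Over all genes, calls ranged from 86 to 790 for MG132 against G2 (395 as reported), 30 to 621 for bortezomib (218), 224 to 1038 for MG132 plus α-amanitin (636), 186 to 830 for MG132 plus α-amanitin against MG132 (415), 0 to 19 for MG132 against bortezomib (7) and 8 to 1037 for G2 against asynchronous (397). Mitochondrial mRNA scaling moved the median of all genes to -0.29, -0.22 and -0.41 in the 3 drug comparisons with G2, and total library size to -0.15 for MG132. Higher and lower calls for MG132 against G2 were 191 and 204, but 144 and 333 with total library size, 76 and 132 with mitochondrial mRNA 198 and 132 with RLE, and 81 and 5 with the compared groups alone. For bortezomib they were 93 and 125, but 74 and 171 with total library size, and 30 and 0 with the code letter block. For MG132 plus α-amanitin they were 197 and 439, but 84 and 899 with mitochondrial mRNA, and against MG132 129 and 286, but 44 and 240.

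The deviations of 40 same-numbered pairs correlated at -0.61 to 0.615, with 12 over 0.1. GC-skewed libraries of unlike number also correlated, MG132 replicate 4 and asynchronous replicate 3 at 0.83. The check therefore shows no steady pairing by number and cannot exclude one. With the replicate block the factors called were 2, 1, 3, 0, 0 and 0, in the order MG132, bortezomib and MG132 plus α-amanitin against G2, MG132 plus α-amanitin against MG132, MG132 against bortezomib and G2 against asynchronous, and genes called 258, 120, 466, 288, 3 and 238. Each sample's best partner had its own number in 16 of 80 cases.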

Other observations

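G2 cells differed from asynchronous cells in several intestinal genes of the lists. POU2F3, the tuft cell factor, was at 2.54 ± 1.11 CPM in G2 cells and 0.773 ± 0.196 CPM in asynchronous cells (SD, n = 4; log2 fold change 1.72, edgeR adjusted p = 0.0073). It was called in 20 of 21 alternatives. DLL4, a Notch ligand, was at 2.14 ± 0.198 and 0.59 ± 0.149 CPM (1.85, adjusted p = 0.00946). KRT20, a keratin of differentiated colon cells, was at 3.2 ± 0.978 and 0.901 ± 0.303 CPM (1.84, adjusted p = 0.0153), a call lost without G2 replicate 1 (0.057), asynchronous replicate 2 (0.0557) or 4 (0.0564). CA2, a carbonic anhydrase of colonocytes, was at 46.7 ± 12.1 and 23.9 ± 9.53 CPM (0.97, adjusted p = 0.0468), and was called in 8 of 21 alternatives. The CA2 call was lost without G2 replicate 1 (0.167), 2 (0.0803), 3 (0.0511) or 4 (0.0665) and without asynchronous replicate 2 (0.118), 3 (0.0876) or 4 (0.156). DLL4, KRT20 and CA2 were chosen after their values were seen.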
